A study of Mus musculus with 9 samples.

Results

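Glutathione transferases and UDP-glucuronosyltransferases, the gene families that attach glutathione or glucuronic acid to reactive and poorly soluble compounds, were followed across 9 uterus libraries. Members were chosen by gene symbol: the numbered Gsta, Gstk, Gstm, Gsto, Gstp, Gstt and Gstz genes, Gstm2-ps1, Mgst1, Mgst2 and Mgst3, and the numbered Ugt1a, Ugt2a and Ugt2b genes. This gave 44 of the 34619 unique symbols in the files, 25 of them glutathione transferases and 19 glucuronosyltransferases. The libraries came from the whole uterus of wild-type females of the outbred CD-1 (ICR) mouse stock, bought at 7 to 8 weeks of age and acclimatized for 1 week. Mice received bisphenol AF (BPAF) or bisphenol B (BPB) by gavage for 28 days at a daily dose of 300 µg per kg of body weight, or corn oil alone as the control, with 3 libraries in each group. All groups had food free of estrogens, corncob bedding and filtered water. The central carbon between the phenol rings carries a pair of trifluoromethyl groups in BPAF and a methyl and an ethyl group in BPB, and the doses were equal by mass, not by mole. The labels do not say that the 3 libraries of a group came from separate mice, so p-values measure the spread between these libraries, which may be technical.

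Glutathione transferases join glutathione to electrophiles such as products of lipid peroxidation. The conjugates are exported and trimmed to mercapturates, and the transferases are grouped into cytosolic classes (alpha, mu, pi, theta, omega, zeta), a mitochondrial kappa class and the microsomal Mgst enzymes. Glucuronosyltransferases of the endoplasmic reticulum transfer glucuronic acid from UDP-glucuronate to phenols, steroids and bilirubin, and glucuronidation is the main route by which bisphenol A, a relative of BPAF and BPB, is cleared. Many genes of both families are known targets of the transcription factor NRF2, which binds antioxidant response elements, and of the aryl hydrocarbon receptor AHR.

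Levels are in FPKM, fragments per length of the gene and per total of the library, so that genes of different length can be compared. The libraries rested on 12620196 to 15616775 reads and held 11614 to 13105 genes at 1 FPKM or more. Mitochondrial transcripts took 19.6% to 27.0% of summed FPKM across the exposed libraries, against 34.1% in control 3 and 14.0% and 14.1% in the other controls. All 8 uterine marker genes on a fixed list (Hoxa10, Hoxa11, Hand2, Wnt7a, Wnt4, Foxa2, Esr1 and Pgr) averaged at least 1 FPKM in each group. The library BPAF 1 stood apart from BPAF 2 and BPAF 3 and lay near the BPB libraries in most values below. The tests of BPAF are therefore given with and without it. As BPAF 1 was singled out by these same values, tests without it are descriptions only.

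The summed level of the 44 members was 2252, 577 and 528 FPKM in BPAF libraries 1 to 3, 2454, 2890 and 2721 FPKM in BPB libraries 1 to 3, and 467, 317 and 563 FPKM in control libraries 1 to 3. Glutathione transferases made up 92.8% to 98.3% of that sum in every library. The mu class summed to 802, 80.3 and 100.7 FPKM in BPAF, 1072, 1368 and 1376 FPKM in BPB and 46.9, 70.2 and 47.4 FPKM in control libraries. The alpha class summed to 647, 34.8 and 46.5 FPKM in BPAF, 731, 786 and 723 FPKM in BPB and 11.1, 10.1 and 25.9 FPKM in control libraries. Both classes were thus high in all BPB libraries and in BPAF 1, and low in the other 5.

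The make-up of the sum differed in the same way. Gstm1, Gsta4 and Gstm2-ps1 together took 54.6%, 9.54% and 16.9% of it in BPAF libraries 1 to 3, 61.8%, 71.1% and 73.7% in BPB and 4.86%, 12.6% and 5.58% in control libraries. Gsto1 and Gstp1, the leading pair elsewhere, took 21.5%, 56.0% and 41.6% in BPAF, 14.3%, 12.9% and 9.72% in BPB and 55.8%, 41.0% and 52.6% in control libraries. In these bulk samples, fewer cells of a type and less RNA per cell cannot be told apart.

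**Figure D1:**
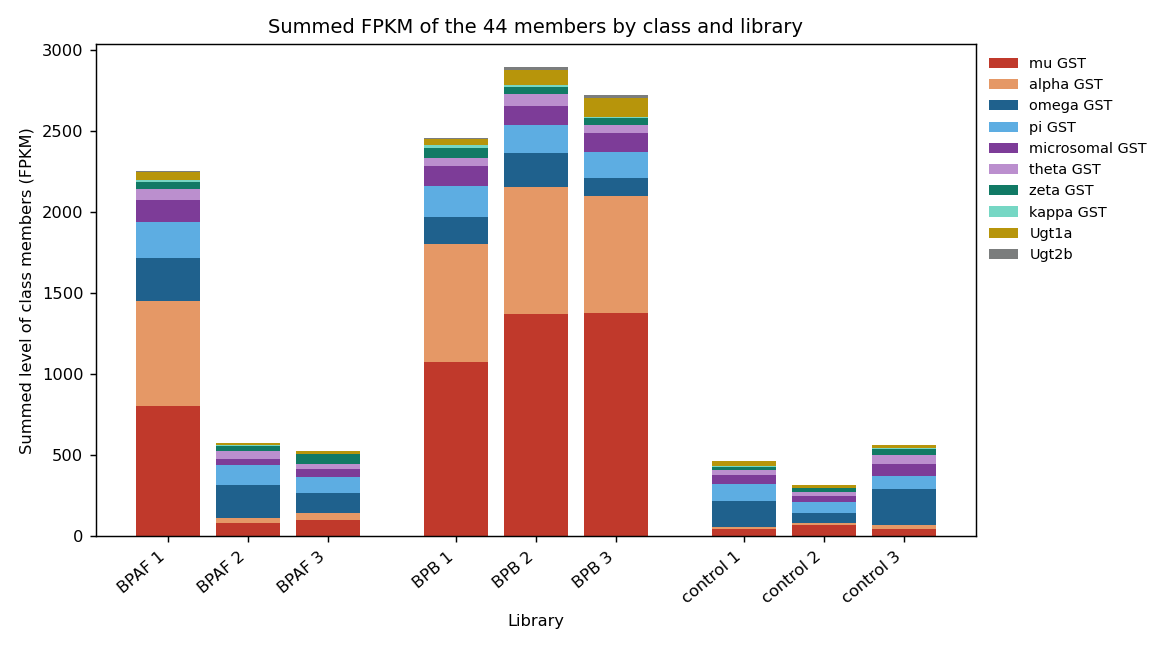
Summed level (FPKM) of the members of each class, stacked, in each of the 9 libraries. The sum is 2252 to 2890 FPKM in BPAF 1 and the BPB libraries and 317 to 577 FPKM in the other 5, and the mu and alpha classes hold most of the gap. The Ugt2a class, at most 0.12 FPKM, is not drawn.

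A gene was tested where 3 or more libraries held at least 1 FPKM of it, which 28 of the 44 members met. Of the 28, 21 were glutathione transferases and 7 glucuronosyltransferases. Gsta2, Mgst2, Gstm3 and Ugt2b34 were under 1 FPKM in every control library and passed this filter through the exposed libraries, so counts over the tested members lean towards higher values after exposure. Differences are in log2(FPKM + 1), a scale that makes changes of low-level genes look smaller than they are.

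In BPB against control, 9 members were higher at an adjusted p under 0.05 (limma, Benjamini-Hochberg over 13743 genes) and 0 were lower. Of all tested genes, 2.55% passed by the same rule, with 2.05% higher and 0.502% lower. The 9 were Gsta2, Gsta4, Gstm1, Gstm2-ps1, Gstm3, Gstm4, Gstt3, Mgst2 and Ugt2b34. At an unadjusted p under 0.05, 21 of the 28 passed, and 17.4% of all tested genes did. The difference was above 0 for 27 of the 28, with a median of 1.30 against 0.15 over all tested genes. All BPB libraries lay above all control libraries for 24 of the 44 members and below them for 0. Among the 28 tested members it was 21 and 0, against 19.5% and 6.1% of all tested genes. The count of 9 changed when 1 library was left out. It was 0 without BPB 2, BPB 3, control 1 or control 3, 1 without control 2, 3 without BPB 1 and 10 without BPAF 1. Over all tested genes, the 282 higher in BPB became 0 without BPB 2, BPB 3 or control 1 and 33 without control 3. With a BPB or control library left out, the difference was 5.56 to 6.28 for Gsta4 and 5.52 to 6.48 for Gstm1. With all libraries it was 5.80 and 5.97.

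Among alpha class enzymes, Gsta4, known for conjugating the lipid peroxidation product hydroxynonenal, had 632, 32.9 and 45.5 FPKM in BPAF libraries 1 to 3, 709, 763 and 704 FPKM in BPB and 8.31, 8.37 and 24.4 FPKM in control libraries. The BPB values lay close together and far above every control. The difference of BPB from control was 5.80 (SE 0.95, adjusted p = 0.0235), which is 55.7-fold on that scale. All SEs come from a single fit of the 9 libraries, so they include the spread within BPAF even in BPB against control. For Gsta4 the SD was 342 FPKM in BPAF, 32.6 FPKM in BPB and 9.29 FPKM in control, and the SE with the 6 libraries of the comparison alone was 0.43. Gsta2, a lower-expressed alpha enzyme, had 5.80, 0.556 and 0.202 FPKM in BPAF, 9.82, 11.3 and 10.1 FPKM in BPB and 0.314, 0.195 and 0.321 FPKM in control libraries. The BPB values corresponded to 212, 262 and 200 reads, against 7, 4 and 6 reads in control libraries. Of the 50-base stretches of the Gsta2 transcripts, 49.8% occur in other genes, with 36.0% in Gsta1, so these reads may not all be its own. The difference was 3.16 (SE 0.54, adjusted p = 0.0259). Gsta3 showed the same split, with 9.01 FPKM in BPAF 1, 0.771 to 1.36 FPKM in the other BPAF libraries, 8.51 to 12.2 FPKM in BPB and 1.15 to 2.53 FPKM in control libraries. It did not pass the test in BPB against control (2.08, SE 0.56, adjusted p = 0.0899). Gsta1, with 90.5% of its stretches in other genes, was not tested. It had 0.119, 0.779 and 0.130 FPKM in BPB libraries and was listed at 0 elsewhere.

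Among mu class enzymes, Gstm1 had 449, 18.7 and 33.0 FPKM in BPAF libraries 1 to 3, 612, 971 and 988 FPKM in BPB and 11.2, 26.3 and 6.27 FPKM in control libraries. It had the highest mean of the members in BPB, as Gsto1 had in control. BPB exceeded control by 5.97 (SE 1.01, adjusted p = 0.0259), or 62.5-fold on that scale. Gstm2-ps1, annotated by RefSeq as a pseudogene on chromosome 5 and so apart from the Gstm genes on chromosome 3, had 148, 3.44 and 10.6 FPKM in BPAF, 194, 322 and 314 FPKM in BPB and 3.23, 5.16 and 0.724 FPKM in control libraries. Its difference in BPB was 6.25 (SE 1.08, adjusted p = 0.0259). Of the 50-base stretches of its GENCODE transcript, 35.4% also occur in Gstm1, and the ratio of Gstm1 to Gstm2-ps1 was 3.02 to 3.15 in BPAF 1, BPAF 3 and the BPB libraries, 5.43 in BPAF 2 and 3.46 to 8.67 in control libraries. Of the Gstm1 stretches, 18.9% occur in other genes, with 14.1% in Gstm2-ps1. The level of Gstm2-ps1 and, with its smaller share, that of Gstm1 are uncertain, because no source used here gives how shared reads were counted.

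Gstm4, with no 50-base stretch in common with another gene, had 16.3, 3.61 and 2.85 FPKM in BPAF, 19.8, 27.0 and 31.2 FPKM in BPB and 3.08, 3.03 and 2.03 FPKM in control libraries. It rose by 2.85 in BPB (SE 0.51, adjusted p = 0.0278). Gstm3 had 1.07, 0 and 0.114 FPKM in BPAF, 1.72, 3.13 and 3.36 FPKM in BPB and 0.101, 0 and 0 FPKM in control libraries. It passed the test in BPB (1.82, SE 0.32, adjusted p = 0.0260) on 33, 64 and 59 reads in BPB libraries and 2 reads in all controls, and 28.8% of its 50-base stretches occur in other genes.

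Members of the mu class did not all follow this split. Gstm7, Gstm2 and Gstm5 are named here after their values were seen. Gstm7 had 119, 8.77 and 5.94 FPKM in BPAF, 105, 9.76 and 6.70 FPKM in BPB and 2.16, 3.76 and 1.10 FPKM in control libraries. Both exposed groups lay above control, replicate 1 was far above the others in each, and neither difference passed the test (adjusted p = 0.390 for BPAF and 0.278 for BPB). Gstm2 reached 103 FPKM in BPB 1 and 11.4 to 32.6 FPKM in the other 8 libraries. Gstm5 ranged from 11.2 to 40.5 FPKM with all 3 groups overlapping, and Gstm6, untested, reached at most 1.57 FPKM. By RefSeq gene order, Gstm7, Gstm6 and Gstm3 are consecutive on chromosome 3 apart from unnamed gene models, as are Gstm2, Gstm1 and Gstm4, so members that passed the test and members that did not are neighbours.

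**Figure D2:**
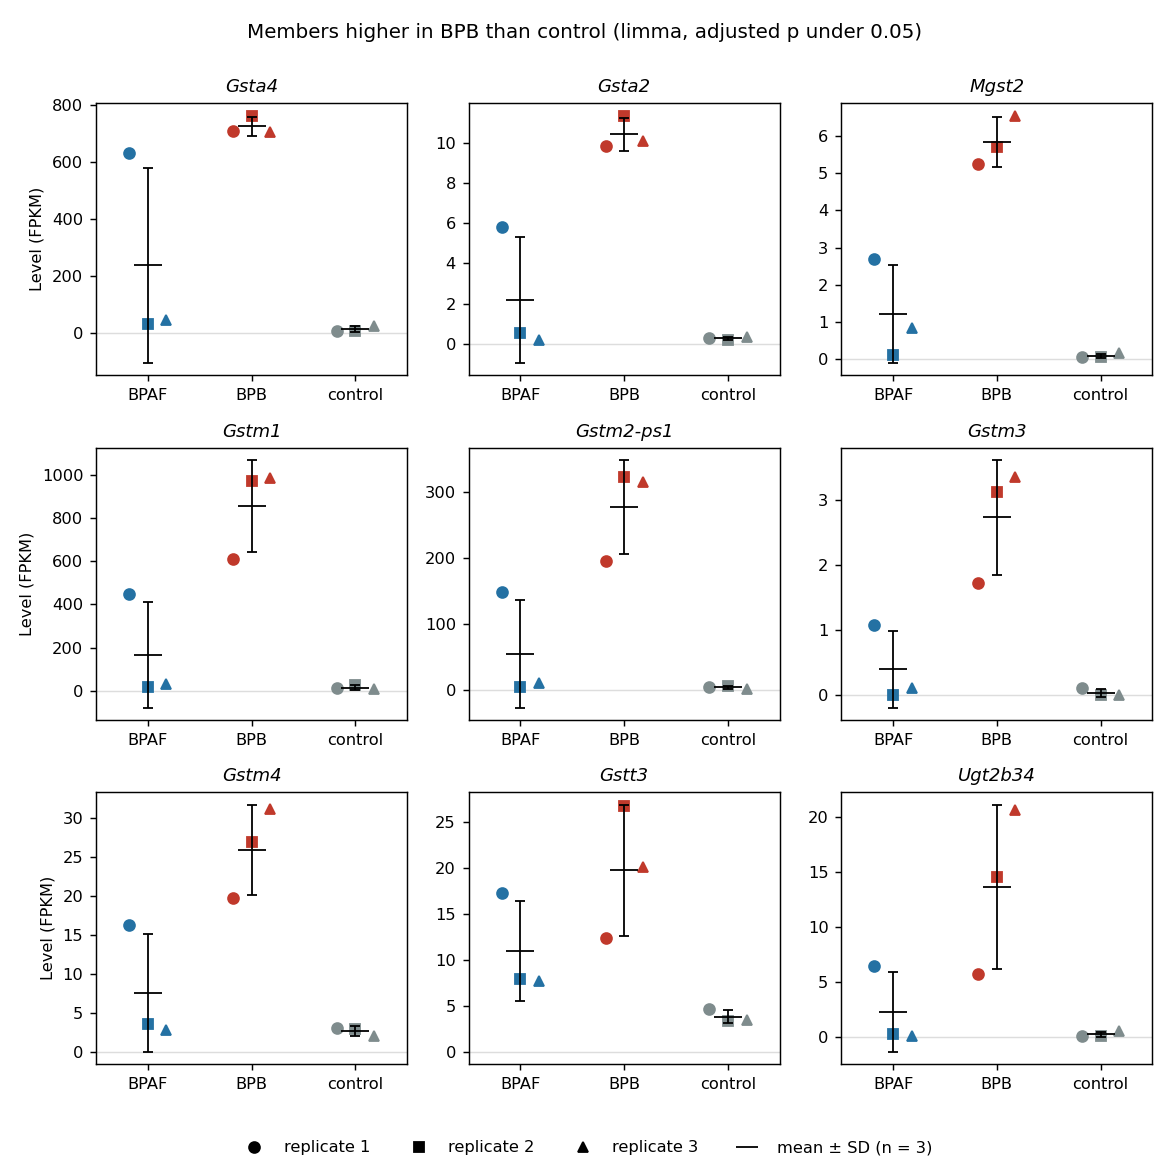
Level (FPKM) in each library of the 9 members that were higher in BPB than in control, with the mean and SD of 3 libraries per group. In each panel the BPB libraries and BPAF 1 hold the highest 4 values. Bars that reach below 0 reflect the spread within a group, mostly BPAF and for Gstm3 and Ugt2b34 also control, not measured values.

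Among theta class enzymes, Gstt3 had 17.3, 7.94 and 7.69 FPKM in BPAF libraries 1 to 3, 12.4, 26.7 and 20.1 FPKM in BPB and 4.66, 3.40 and 3.46 FPKM in control libraries. Here BPAF 2 and BPAF 3, too, lay above every control, as they did for Gsta4 among the called members. The difference of Gstt3 in BPB was 2.05 (SE 0.36, adjusted p = 0.0278), and 12.5% of its 50-base stretches occur in other genes. Gstt2, the theta member with the highest mean, had 40.0, 34.6 and 22.8 FPKM in BPAF, 23.2, 33.2 and 21.0 FPKM in BPB and 25.9, 14.3 and 48.1 FPKM in control libraries, and the groups overlapped (BPB against control, -0.05, SE 0.42, adjusted p = 0.970). Gstt1 ranged from 8.96 to 14.8 FPKM in BPB, above the 3.13 to 7.41 FPKM of the other libraries, without passing the test (adjusted p = 0.143). Gstt4 was listed at 0 in all but 1 library.

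The pi class enzyme Gstp1, which detoxifies electrophiles in many tissues outside the liver, had 217, 119 and 101 FPKM in BPAF, 186, 164 and 159 FPKM in BPB and 98.4, 68.7 and 80.2 FPKM in control libraries. Every exposed library lay above every control, but the differences of 0.75 in BPAF (SE 0.33, adjusted p = 0.381) and 1.05 in BPB (SE 0.33, adjusted p = 0.137) did not pass. Its neighbour Gstp2 stayed at or below 4.46 FPKM, and 54.3% of its 50-base stretches occur in other genes. Of the stretches of Gstp1, 33.7% also occur in Gstp2. The omega class enzyme Gsto1, a thioltransferase, had 268, 204 and 119 FPKM in BPAF, 166, 209 and 105 FPKM in BPB and 162, 61.3 and 216 FPKM in control libraries. It was thus abundant in all groups with full overlap, and its difference in BPB was 0.25 with a 95% interval of -0.89 to 1.40. Gsto2 reached at most 1.93 FPKM and was not tested.

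The mitochondrial kappa enzyme Gstk1 had 13.1, 3.89 and 5.98 FPKM in BPAF, 15.6, 9.21 and 7.51 FPKM in BPB and 2.91, 4.63 and 4.81 FPKM in control libraries. Gstz1, a zeta class enzyme of tyrosine breakdown, had 43.6, 32.4 and 55.9 FPKM in BPAF, 63.4, 48.5 and 38.7 FPKM in BPB and 19.1, 24.4 and 35.6 FPKM in control libraries. For both, every BPB library lay above every control, but neither difference passed (1.17 for Gstk1, adjusted p = 0.182, and 0.92 for Gstz1, adjusted p = 0.177).

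Of the microsomal enzymes, Mgst2, known also for making leukotrienes, had 2.69, 0.117 and 0.839 FPKM in BPAF libraries 1 to 3, 5.24, 5.71 and 6.55 FPKM in BPB and 0.0504, 0.0549 and 0.151 FPKM in control libraries. It had the lowest adjusted p of the members in BPB against control (2.65, SE 0.38, adjusted p = 0.0183). The BPB libraries held 402, 469 and 462 of its reads, against 4, 4 and 10 in control libraries. Mgst3, the most abundant of the microsomal enzymes on average, had 69.2, 19.3 and 12.1 FPKM in BPAF, 62.3, 67.8 and 65.8 FPKM in BPB and 33.4, 23.9 and 48.7 FPKM in control libraries. All BPB libraries lay above all controls, and BPAF 2 and BPAF 3 lay below them (BPB against control 0.92, SE 0.55, adjusted p = 0.431). Mgst1, the general microsomal enzyme, ranged from 42.5 to 57.0 FPKM in BPB and from 11.8 to 28.1 FPKM in control libraries (1.30, SE 0.47, adjusted p = 0.191).

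The glucuronosyltransferases were a small part of the sum, at 14.0 to 56.4 FPKM in BPAF, 41.6 to 137 FPKM in BPB and 15.7 to 33.4 FPKM in control libraries. Ugt2b34 was the member of this family that passed the test. It had 6.44, 0.307 and 0.0718 FPKM in BPAF libraries 1 to 3, 5.74, 14.5 and 20.6 FPKM in BPB and 0.0955, 0.115 and 0.545 FPKM in control libraries. The difference in BPB was 3.41 (SE 0.70, adjusted p = 0.0421), the BPB libraries spanned more than a 3-fold range, and 1.4% of its 50-base stretches occur in another gene. Of the other Ugt2b and Ugt2a members, Ugt2b35 reached 1.98 FPKM in BPB 3, and the remaining 8 stayed at or below 0.232 FPKM. Among those, Ugt2a2 and Ugt2b37 were listed at 0 in every library, and Ugt2a1, the highest of its class by mean, had 0.0873 FPKM in BPAF 3, 0.107 FPKM in BPB 1 and 0 elsewhere.

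The Ugt1a enzymes are made from separate first exons joined to shared later exons, and Ugt1a1 is the enzyme of bilirubin glucuronidation. Between 52.1% and 79.8% of the 50-base stretches of each occur in another gene, so reads may be split among them and their separate levels are uncertain. Ugt1a7c, the highest by mean, had 9.86, 6.02 and 4.65 FPKM in BPAF libraries 1 to 3, 13.3, 45.5 and 24.3 FPKM in BPB and 16.9, 8.0 and 6.07 FPKM in control libraries. BPB and control overlapped, and BPAF lay below BPB (BPB against control 1.30, SE 0.49, adjusted p = 0.206). Ugt1a6a had 6.18, 1.44 and 1.49 FPKM in BPAF, 2.57, 7.43 and 15.8 FPKM in BPB and 1.15, 0.611 and 0.524 FPKM in control libraries. Every exposed library was above every control for it, and its adjusted p of 0.0843 in BPB was the lowest of the 6 tested Ugt1a members (2.19, SE 0.58). None of the 6 passed. As a class, Ugt1a summed to 49.0, 13.7 and 16.8 FPKM in BPAF, 35.6, 93.1 and 114 FPKM in BPB and 32.8, 15.6 and 18.4 FPKM in control libraries. BPB lay above control by a small margin in its lowest library. Ugt1a9 had 3.63 and 3.37 FPKM in BPB 2 and BPB 3 and at most 0.0712 FPKM elsewhere, and Ugt1a2 had 1.66 FPKM in BPAF 3, 4.42 FPKM in BPB 3 and at most 0.116 FPKM elsewhere. Neither was tested.

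**Figure D3:**
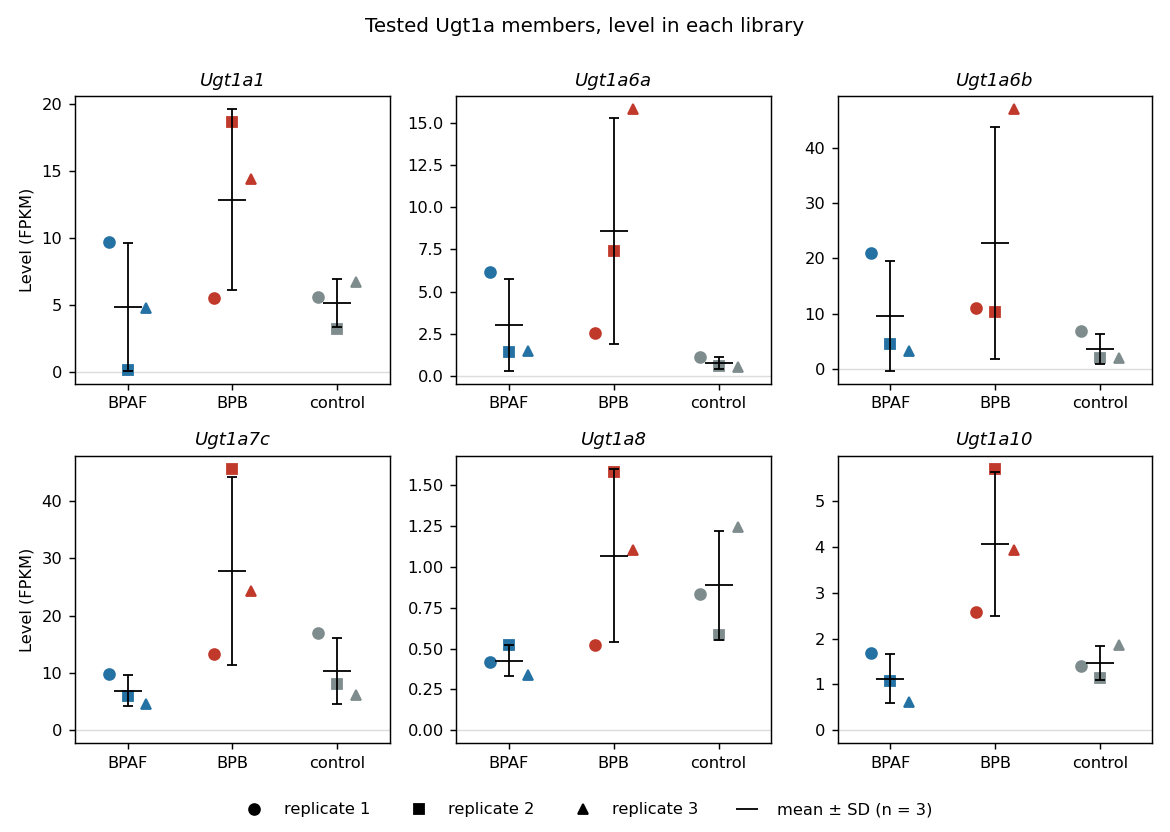
Level (FPKM) in each library of the 6 tested Ugt1a members, with the mean and SD of 3 libraries per group. Ugt1a6a, Ugt1a6b and Ugt1a10 have all BPB libraries above all controls, while Ugt1a1, Ugt1a7c and Ugt1a8 overlap, and the 3 BPB libraries spread widely.

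In BPAF against control, 0 of the 28 tested members passed at an adjusted p under 0.05 (limma) and 8 passed at an unadjusted p under 0.05. Of all tested genes, 0.0218% passed by the adjusted rule, 0.00728% higher and 0.0146% lower, and 12.8% by the unadjusted one. Both comparisons use the same control libraries. The lowest adjusted p among members was 0.301, for Gstt3 (1.22, SE 0.36), followed by 0.304 for Gsta4 (2.94, SE 0.95). The median difference of the members was 0.73 against 0.21 over all tested genes. All BPAF libraries lay above all controls for 6 of the 28 tested members (Gsta4, Gstm2, Gstm7, Gstp1, Gstt3 and Ugt1a6a) and below them for 1, Ugt1a8. Over all tested genes those shares were 14.3% and 2.5%. Without BPAF 1 the median of the members was 0.22, 3 members had an unadjusted p under 0.05 and 0 passed, while 9.76% of all tested genes had such a p, 0% passed higher and 0.00738% lower. Gsta4 was then 1.61 higher in BPAF (SE 0.46, adjusted p = 0.464), Gstt3 0.87 higher (SE 0.34, adjusted p = 0.489) and Mgst3 1.10 lower on the same log2 scale (a difference of -1.10, SE 0.35, adjusted p = 0.471).

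BPAF and BPB were then compared directly, over the 28 tested members as 1 pair of compounds at matched dose and time. Of the members, 0 passed at an adjusted p under 0.05 (limma) and 14 passed at an unadjusted p under 0.05. Of all tested genes, 0.24% were lower in BPAF and 0% higher by the adjusted rule, and 6.75% passed the unadjusted one. With the replicate number as a block, 0 members and 0 of all tested genes passed the adjusted rule. The difference was below 0 for 25 of the 28, with a median of -1.19 against 0.07 over all tested genes. All BPAF libraries lay below all BPB libraries for 13 of the 44 members and above them for 0. Among the 28 tested members it was 11 and 0, while 6.41% of all tested genes lay below and 6.54% above. The intervals were wide. For Gstm1 the difference of BPAF from BPB was -3.65 (95% interval -5.92 to -1.37, adjusted p = 0.302), for Gsta4 -2.86 (-5.00 to -0.72, adjusted p = 0.448), and for Mgst2, which had the lowest adjusted p, -1.80 (-2.64 to -0.95, adjusted p = 0.137). For Gstp1 it was -0.30 (-1.03 to 0.43), for Gstm7 -0.04 (-2.70 to 2.62) and for Gsto1 0.28 (-0.87 to 1.42), which leaves room for sizeable differences either way.

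The direct comparison turned on BPAF 1. Without it, 10 members were lower in BPAF than in BPB at an adjusted p under 0.05, namely Gsta2, Gsta3, Gsta4, Gstm1, Gstm2-ps1, Gstm3, Gstm4, Mgst2, Mgst3 and Ugt2b34. Of all tested genes, 1.71% were then lower and 0.0369% higher. The differences then included -5.02 for Gstm1 (SE 0.55, adjusted p = 0.00308), -4.19 for Gsta4 (SE 0.46, adjusted p = 0.00305) and -3.06 for Gsta2 (SE 0.24, adjusted p = 0.000458). BPAF 1 was singled out because its member values lay near BPB. Leaving it out therefore widens the gap and narrows the spread within BPAF for such members in advance. These p-values cannot serve as support for a difference between the compounds.

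**Figure D4:**
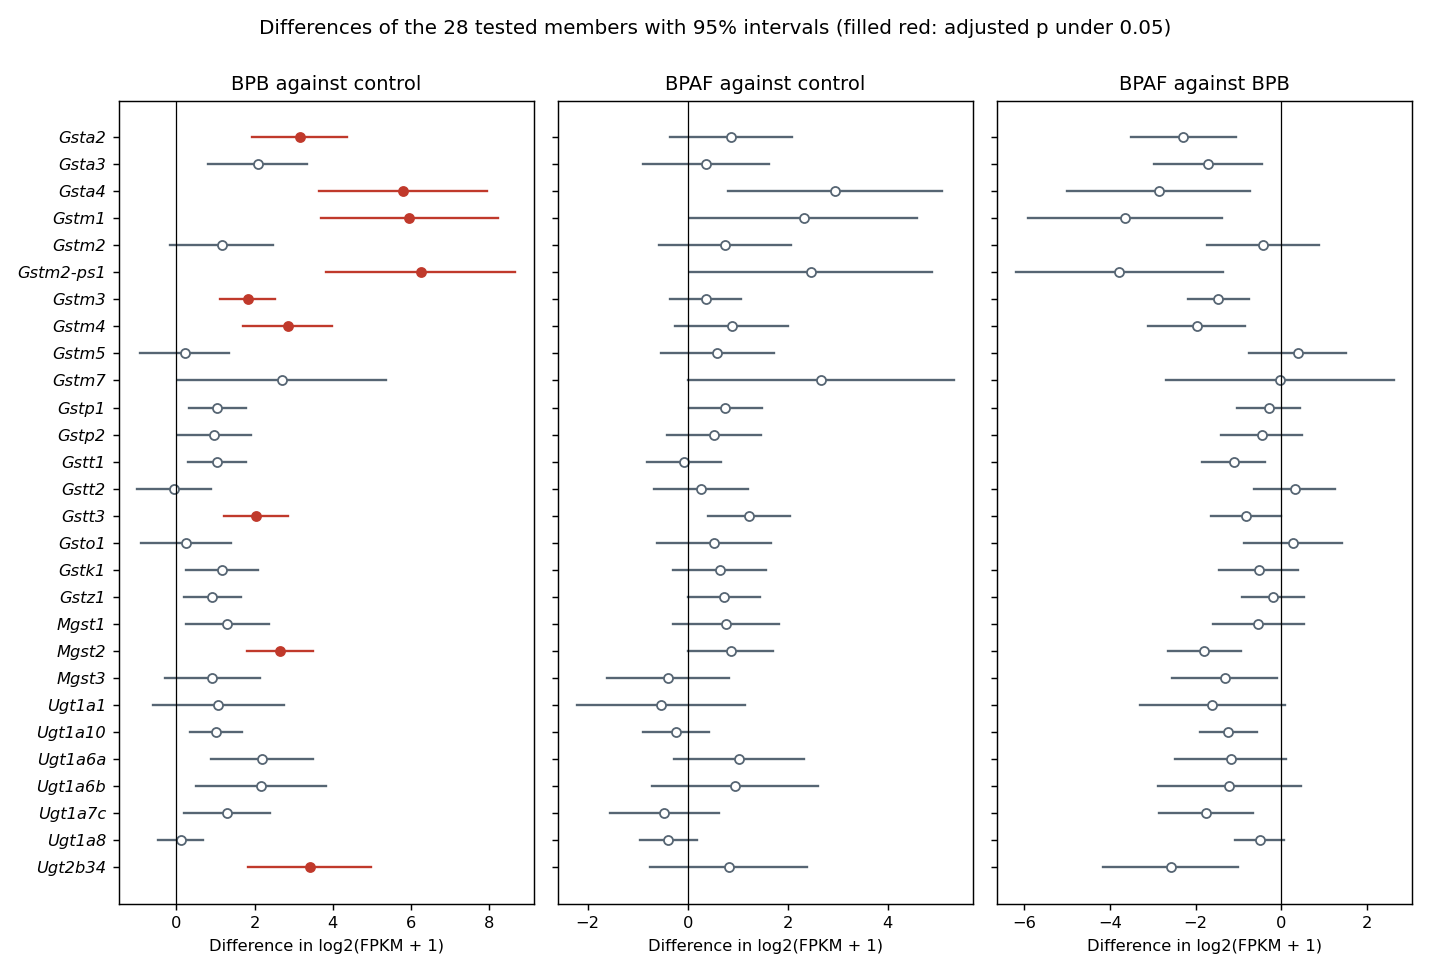
Difference in log2(FPKM + 1) of the 28 tested members in each comparison, with 95% intervals from limma. Filled red points passed an adjusted p of 0.05, which 9 members did in BPB against control and 0 in the comparisons of BPAF with control and of BPAF with BPB.

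The highest 4 of the 9 libraries were BPAF 1 and the 3 BPB libraries for 18 of the 44 members. Among the 28 tested members this held for 17, and among all tested genes for 5.33%. The 9 called members were among the 18. This pattern was first seen in these same members, so its counts are descriptions only and cannot serve as support. Gsta2, Mgst2, Gstm3 and Ugt2b34, which passed the filter through the exposed libraries, are part of them. The same 4 libraries were the highest for 11 of 13 markers of the urothelium, the lining of the bladder, on a list that includes the uroplakins Upk1a, Upk1b, Upk2, Upk3a and Upk3b. The summed level of the 13 was 1840, 88.5 and 43.3 FPKM in BPAF libraries 1 to 3, 2049, 2971 and 3414 FPKM in BPB and 122.7, 70.5 and 149 FPKM in control libraries. The listed keratins Krt7 and Krt20 did not follow the split. Krt7 had 69.3, 75.2 and 27.2 FPKM in BPAF, 63.5, 92.0 and 91.7 FPKM in BPB and 89.8, 40.4 and 64.0 FPKM in control libraries. Krt7, Krt20 and Krt5 (71.9 FPKM in control 3) made up most of the sum in BPAF 2, BPAF 3 and the controls. Upk1a had 400, 0.838 and 3.14 FPKM in BPAF, 497, 653 and 758 FPKM in BPB and 0.203, 2.98 and 0 FPKM in control libraries. Upk3a was at 0 in BPAF 2, in BPAF 3 and in every control. Averages of at least 1 FPKM were reached by 13 of the 13 in BPAF and in BPB and by 7 in control. Over BPAF 2 and BPAF 3 alone, 6 of the 13 reached it. The part of urothelial RNA in the members' differences was not tested.

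Markers of other cell types moved less closely with the members. Summed levels of 7 adipocyte markers were 678, 0.794 and 323 FPKM in BPAF, 901, 297 and 101 FPKM in BPB and 82.5, 83.6 and 106 FPKM in control libraries. For 8 liver markers the sums were 0.696 to 85.3 FPKM in BPAF, 25.6 to 58.4 FPKM in BPB and 4.20 to 44.1 FPKM in control libraries. Cyp2e1 and Ttr held most of the highest sums, with 67.9 and 14.5 FPKM in BPAF 1 and 45.9 and 11.3 FPKM in BPB 1. Alb was at most 2.90 FPKM in BPB and had 21.3 FPKM in control 1. For 8 smooth muscle markers they were 1044 to 3408 FPKM in BPAF, 7394 to 11806 FPKM in BPB and 3552 to 5649 FPKM in control libraries, without overlap between BPB and control. For 7 general epithelial markers they were 774 to 1562 FPKM in BPAF, 1038 to 1518 FPKM in BPB and 979 to 1609 FPKM in control libraries. For 5 stromal markers they were 822 to 1667 FPKM in BPAF, 770 to 1814 FPKM in BPB and 1980 to 2475 FPKM in control libraries. Kidney tubule, intestine and ovary or oviduct markers summed to at most 31.0 FPKM, apart from 178 FPKM for kidney tubule markers in control 2. Of those 178 FPKM, Kap alone held 177 FPKM. The part of these lists in the members' differences was not tested.

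**Figure D5:**
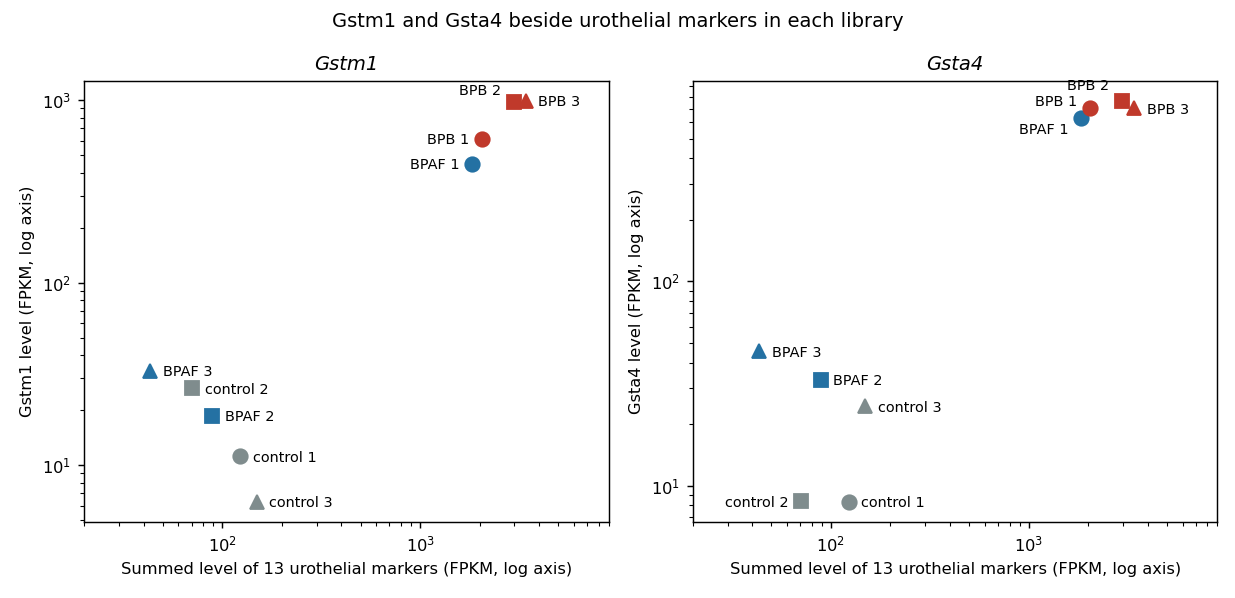
Level (FPKM, log axis) of Gstm1 and Gsta4 against the summed level (FPKM, log axis) of 13 urothelial markers in each of the 9 libraries. BPAF 1 and the BPB libraries lie at 1840 FPKM of markers or more and at 449 FPKM of either gene or more, and the other 5 libraries lie at 149 FPKM of markers or less and at 45.5 FPKM of either gene or less. In those 5 libraries the keratins Krt5, Krt7 and Krt20 make up most of the marker sum.

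Genes that supply, export and process the conjugates were read from fixed lists. Of 7 tested exporters of conjugates, 2 passed higher in BPB against control and 0 lower, against 2.05% and 0.502% of all tested genes. Their median difference was 0.86, against 0.15 over all tested genes. Abcc3, which exports glucuronides and glutathione conjugates, averaged 9.69 ± 4.84 FPKM in BPAF, 20.3 ± 9.46 FPKM in BPB and 2.22 ± 0.839 FPKM in control libraries (SD, n = 3 each), a difference of 2.64 in BPB (SE 0.48, adjusted p = 0.0296, limma). Abcc4, a related exporter, averaged 10.6 ± 3.52 FPKM in BPAF, 16.8 ± 4.17 FPKM in BPB and 4.57 ± 2.01 FPKM in control libraries (SD, n = 3 each), a difference of 1.72 (SE 0.35, adjusted p = 0.0412, limma). Of 8 genes that process glutathione conjugates and mercapturates, 1 rose, 0 fell and the median was -0.03. The one was Acy3, an aminoacylase that removes the acetyl group of mercapturates, with 3.41 ± 1.30 FPKM in BPAF, 4.01 ± 0.335 FPKM in BPB and 1.17 ± 0.259 FPKM in control libraries (SD, n = 3 each) and a difference of 1.21 (adjusted p = 0.0493, limma).

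Supply of the donor molecules gave no call in BPB against control. Of 8 genes of glutathione synthesis and recycling, 0 passed in either direction, with a median of -0.05. An unadjusted p under 0.05 was reached by 3, against 17.4% of all tested genes. Gsr was lower in BPB (-1.10, SE 0.45, adjusted p = 0.240, limma), and Oplah (0.81, SE 0.28, adjusted p = 0.174, limma) and Gclc were higher. Gclc, the catalytic subunit of the rate-limiting enzyme of glutathione synthesis, averaged 21.9 ± 5.50 FPKM in BPAF, 30.2 ± 2.81 FPKM in BPB and 14.2 ± 3.45 FPKM in control libraries (SD, n = 3 each, adjusted p = 0.0803 in BPB against control, limma). Of 4 genes of glucuronate supply and removal, 0 passed, 1 had an unadjusted p under 0.05 and the median was 0.13. Ugdh, which makes UDP-glucuronate, averaged 15.6 ± 11.4 FPKM in BPAF, 35.0 ± 9.60 FPKM in BPB and 13.3 ± 2.39 FPKM in control libraries (SD, n = 3 each, adjusted p = 0.163 in BPB against control, limma). Of 7 sulfotransferases and sulfate donor genes, the other route of phenol conjugation, 0 passed, 0 had an unadjusted p under 0.05 and the median was 0.26.

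Among 9 tested regulators of conjugation genes, which include Nfe2l2 (the NRF2 gene), Keap1 and Ahr, 0 passed in BPB against control and 1, Rxra, had an unadjusted p under 0.05 (10.5 ± 1.94 FPKM in BPAF, 18.9 ± 5.41 FPKM in BPB and 7.57 ± 2.61 FPKM in control libraries, SD, n = 3 each, adjusted p = 0.0815, limma). Of 9 other known NRF2 targets, 2 passed higher and 0 lower, against 2.05% and 0.502% of all tested genes. An unadjusted p under 0.05 was reached by 7, against 17.4% of all tested genes, and the median was -0.27. The 2 that passed were Osgin1, a stress-induced growth inhibitor, at 2.18 ± 1.42 FPKM in BPAF, 7.87 ± 2.65 FPKM in BPB and 1.74 ± 0.600 FPKM in control libraries (SD, n = 3 each, adjusted p = 0.0489, limma), and Me1, malic enzyme. Me1 averaged 16.5 ± 4.12 FPKM in BPAF, 32.4 ± 1.84 FPKM in BPB and 13.8 ± 2.53 FPKM in control libraries (SD, n = 3 each, adjusted p = 0.0466, limma). The list did not move one way, since differences were above 0 for 4 of the 9. Without passing, Hmox1 (-0.96), Srxn1 (-0.68) and Txnrd1 (-1.03) were lower in BPB at an unadjusted p under 0.05 (limma). Nqo1 (2.66) and Akr1b8 (1.35) were higher at that level. Of 7 relatives of the transferases outside the symbol rule, among them Hpgds, Ptges and Ltc4s, 0 passed and the median was 0.02. Of these 7, 1 had an unadjusted p under 0.05, Alox5ap, which was lower in BPB (-1.13, SE 0.49, adjusted p = 0.271, limma). In the comparisons of BPAF with control and with BPB, 0 genes of these 8 lists passed at an adjusted p under 0.05. Without BPAF 1, 0 passed against control, and 2 were lower in BPAF than in BPB, Ugdh (-1.81, SE 0.32, adjusted p = 0.0318, limma) and Osgin1 (-1.86, SE 0.34, adjusted p = 0.0359, limma). The mean of BPAF 2 and BPAF 3 was 9.09 FPKM for Ugdh and 1.37 FPKM for Osgin1. Without BPAF 1, 1.71% of all tested genes were lower in BPAF than in BPB. BPAF 1 was singled out by these data, so these 2 calls are descriptions only.

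The 5 calls on these lists changed too when 1 library was left out. Without BPB 2, BPB 3 or any control library in turn, none of Abcc3, Abcc4, Acy3, Osgin1 and Me1 passed in BPB against control, and without BPB 1 Abcc3 alone did. Of 19 alternatives, the call was lost in 8 for Abcc3, 11 for Abcc4, 15 for Acy3, 16 for Osgin1 and 14 for Me1.

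Promoter windows of RefSeq (build GRCm38.p6) were available for 40 of the 44 members and 7 of the 9 called. They were searched on both strands for TGACNNNGC, the core of the antioxidant response element, and for GCGTG, the core of the dioxin response element to which AHR binds. TGACNNNGC occurred in 4 members (Gsta3, Gstm5, Gstm7 and Mgst1), or 10%, against 12.4% of 32851 windows in all, and in 0 of the 7 called members. GCGTG occurred in 8 members, or 20%, against 32.4% of all windows, and in 2 of the 7 called, Gstm1 and Gsta2. The 40 members had 49 windows, and a member was counted once if any of its windows matched. The shares of members are thus per gene and those of all windows per window, which are unlike measures. A match is a description of these letters and says nothing of binding, and elements farther away are not covered. The 250 bases before the start are shown for the called members with a match, Gstm1 and Gsta2, and for Gsta3, whose window holds an antioxidant core, with the matched core in capitals. The windows lie at chr3:108017974-108018223 (minus strand) for Gstm1, chr9:78347146-78347395 (minus strand) for Gsta2 and chr1:21240335-21240584 (plus strand) for Gsta3.
Gstm1: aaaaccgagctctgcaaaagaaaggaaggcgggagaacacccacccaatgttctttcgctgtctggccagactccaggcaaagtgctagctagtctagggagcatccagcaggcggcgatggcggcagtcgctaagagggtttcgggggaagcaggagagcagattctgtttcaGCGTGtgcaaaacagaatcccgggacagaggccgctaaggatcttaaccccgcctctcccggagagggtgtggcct
Gsta2: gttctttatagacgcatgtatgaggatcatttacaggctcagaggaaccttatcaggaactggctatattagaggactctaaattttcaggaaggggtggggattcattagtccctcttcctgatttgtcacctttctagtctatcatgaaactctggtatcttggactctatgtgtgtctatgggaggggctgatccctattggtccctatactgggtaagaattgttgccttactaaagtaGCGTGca
Gsta3: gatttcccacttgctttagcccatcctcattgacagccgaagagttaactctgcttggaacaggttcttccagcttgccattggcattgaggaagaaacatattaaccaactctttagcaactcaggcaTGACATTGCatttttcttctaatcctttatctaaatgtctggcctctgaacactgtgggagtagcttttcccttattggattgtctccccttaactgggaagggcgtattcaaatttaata
The matches end 71, 2 and 112 bases before the start in Gstm1, Gsta2 and Gsta3.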

How the data were processed

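Stranded mRNA libraries were made from 1.3 µg of total uterus RNA each, per the labels' protocols. The authors deposited 1 value per gene symbol and library with no unit. The values were read as FPKM because, multiplied by the length of single-transcript GENCODE M21 genes, 87.9% to 90.9% of them fell within 0.01 of whole multiples of a step per library. Read totals come from those steps. The sources used here give neither the aligner, counter and genome build nor how reads shared between genes were handled. Reads of a member came from the shortest length at which its values in all libraries were near whole multiples of those steps. That length was fitted and not taken from an annotation, so the reads of a member may be off by a common factor.

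Groups came from the sample titles. Unique symbols with at least 1 FPKM in 3 or more libraries, 13743 genes, were tested with limma 3.58.1 (R 4.3.3, trend, robust, two-sided) on log2(FPKM + 1); a single fit of the 9 libraries had the group as its term. P-values were Benjamini-Hochberg adjusted over all tested genes and called under 0.05. The fit was tested on simulated data. The design allowed for counts, but FPKM were deposited, so edgeR and DESeq2 were not run.

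Members and lists were chosen with earlier results of these data known. Called members and the member with the highest mean of each class are given by library, others by range, except where stated. From the lists, called genes were named. Of the other list genes, some with an unadjusted p under 0.05 were named, and some only as examples of a list. RefSeq gave promoters and gene order, and shared 50-base stretches came from GENCODE M21 transcripts. Same-numbered BPAF and BPB libraries deviated together (correlations 0.343, 0.339 and 0.484). Same-numbered exposed and control libraries did not (-0.399 to -0.079). With 3 libraries a group, these correlations cannot establish whether the numbers pair libraries, and the labels name no shared batch. Alternatives were other filters, pseudocounts of 0.1 and 0.01, no trend, no robust estimation, other scalings, 6 libraries alone, the replicate block and each library left out. The block within the 6 BPAF and BPB libraries was chosen after seeing the data. Protein sequences are not used here.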

Additional observations from a re-analysis of the deposited data

How the results depend on the processing

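The 9 members called higher in BPB against control became 3 with no filter on low values and 4 at a pseudocount of 0.01. They became 0 with the replicate number as a block, although same-numbered BPB and control libraries did not deviate together. With 1 library left out the count ranged from 0 to 10. It was 7 to 10 under the other alternatives, and 0 members were lower under any. In BPAF against BPB, 0 members were lower under every alternative, the replicate block included, except for 10 without BPAF 1, a range from 0 to 10 over the libraries left out. In BPB against control the block also ended the calls of Abcc3, Abcc4, Acy3, Me1 and Osgin1 (adjusted p 0.0703, 0.0961, 0.103, 0.0907 and 0.114). Over all genes it left 0 of the 33 lower in BPAF against BPB and 0 of the 3 called in BPAF against control. In BPAF against control, 0 members were called under any alternative. Calls over all genes moved too. The 282 genes higher in BPB became 136 with no filter, 130 and 58 at pseudocounts of 0.1 and 0.01, 166 at equal sums, 428 in the 6 libraries alone, 11 with the block and 0 to 371 with 1 library left out. The 33 lower in BPAF against BPB became 232 without BPAF 1.

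No difference of a called member or list gene changed sign. The adjusted p of the list genes reached 0.15 for Abcc3, 0.187 for Abcc4, 0.2 for Acy3, 0.211 for Osgin1 and 0.212 for Me1. Acy3, Osgin1 and Me1 lost their call with small changes as well, such as the filter of 0.1 FPKM (0.0569, 0.0566 and 0.0543) and scaling by median ratios (0.0659, 0.0785 and 0.0686). Gsta4 stayed at 5.54 to 6.28 (adjusted p 0.000214 to 0.128), Gstm1 at 5.52 to 6.48 (adjusted p 0.000563 to 0.129) and Mgst2 at 2.56 to 6.09 (adjusted p 0.000783 to 0.119). Scaling by median ratios moved the median of all genes in BPB against control to -0.06, against 0.15 as deposited, and still gave 9 members higher and 0 lower, while calls over all genes became 198 higher and 112 lower, against 282 and 69. The cause of these changes was not tested. Depth limits the weakest members: the controls held 4 to 7 reads of Gsta2, 4 to 10 of Mgst2 and 0 to 2 of Gstm3.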
